A study of Homo sapiens with 36 samples.

Results

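The mitochondrial genome and the nuclear genes that copy, transcribe and stabilise it were followed through 36 RNA sequencing libraries. The set held 37 genes out of the 58243 genes of the count matrix, chosen as a list of symbols and matched through Ensembl gene identifiers. It comprised the 13 mRNAs and 2 rRNAs encoded by mitochondrial DNA, and 22 nuclear genes for factors of mitochondrial DNA copying, transcription, RNA processing and RNA stability. All 37 were detected at a level that passed the filter on low counts in each line.

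The libraries came from 3 established human lines of pancreatic ductal adenocarcinoma: PANC-1, MIA PaCa-2 and BxPC-3. Each line was treated for 48 h with the vehicle DMSO, with GW3965, a synthetic agonist of the liver X receptors (LXR, nuclear receptors for oxysterols), or with 1E5 or 3A4, code-named compounds that the labels class as LXR inverse agonists. The ligand dose was 10 µM, and each of the 12 combinations of line and treatment had 3 libraries. The medium was RPMI 1640 for BxPC-3 and DMEM for PANC-1 and MIA PaCa-2, so that line and medium cannot be told apart. RNA was taken up on RNeasy columns and 500 ng of total RNA entered the QIAseq Stranded Total RNA kit; whether rRNA was removed is not given in the sources used here.

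Mitochondrial DNA is a small circle transcribed from both strands by a dedicated polymerase, POLRMT, with the DNA-binding factor TFAM and the initiation factor TFB2M. The heavy-strand transcript begins with the rRNAs and continues through 12 of the 13 mRNAs, and tRNAs punctuate it; ELAC2 and the TRMT10C complex cut at these tRNAs. MT-ND6 is read from the other strand. Stability of the freed mRNAs depends on LRPPRC with SLIRP, and their decay on the helicase SUPV3L1 with the nuclease PNPT1, while all proteins of this machinery are made from nuclear genes.

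Library totals ran from 2701393 to 26026684 counts, and in MIA PaCa-2 depth went with treatment: the DMSO libraries held 3609582 to 10996848 counts and the 1E5 libraries 23675670 to 25503827. The keratin and EPCAM list had all 5 genes with counts in each line, with summed levels, in CPM (counts scaled to library size), of 4691 to 6084 in BxPC-3, 717 to 4974 in PANC-1 and 601 to 1634 in MIA PaCa-2. EPCAM was at or near 0 in MIA PaCa-2. Counts of nuclear rRNA genes made up at most 0.0356% of a library. PANC-1 with 1E5 had 1 library, number 2, that stood apart in mitochondrial rRNA and in several mRNAs. Fold changes with 1E5 against DMSO that rest on it are given with and without it. The labels number the libraries of a group as biological replicates without saying that they were separate cultures on separate days, so a p-value here reflects only how far these libraries spread. In bulk RNA, fewer cells and less RNA per cell cannot be told apart.

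A pair of sequences shows features of the genome's layout that bear on the counts below, with positions on GRCh38 and letters read from the genome that accompanies GENCODE release 29. The end of MT-ATP8 and the start of MT-ATP6 share 46 bases of the heavy-strand map, chromosome M 8527 to 8572 on the plus strand, and capitals mark the first bases of MT-ATP6. Reads in this stretch fit both genes, and MT-ND4L and MT-ND4 share 7 bases, so the values of these neighbours are not independent.
MT-ATP8 and MT-ATP6 overlap: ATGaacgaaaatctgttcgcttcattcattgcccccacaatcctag

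The tRNA gene MT-TL1, chromosome M 3230 to 3304 on the plus strand, begins at the base after MT-RNR2 ends and lies just before MT-ND1. It is the boundary between the rRNAs and the mRNAs, whose responses to 1E5 parted, and it holds the binding site of the termination factor MTERF1. Capitals mark the core letters GGCAGAGCC of that site.
MT-TL1: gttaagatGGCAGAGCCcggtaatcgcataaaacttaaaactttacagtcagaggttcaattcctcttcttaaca

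In DMSO the 15 mitochondrially encoded genes took between 5.95% and 7.18% of all counts in PANC-1, between 7.46% and 7.53% in MIA PaCa-2, and between 7.33% and 8.37% in BxPC-3. Per kilobase of exon, with the CPM scaled here over all 36 libraries and not within each line as elsewhere, the cytochrome c oxidase subunits led: MT-CO2, MT-CO3 and MT-CO1 were the 3 highest of the 15 in each line. MT-CO2 stood at 18748 ± 456 CPM per kilobase (SD, n = 3) in BxPC-3 and 12416 ± 757 in PANC-1. In MIA PaCa-2, MT-CO3 at 15797 ± 646 and MT-CO2 at 15703 ± 1729 could not be ranked within their spread. The small rRNA MT-RNR1 was lowest in BxPC-3, at 989 ± 42.0 CPM per kilobase, and in PANC-1, at 605 ± 162, and MT-ND6 was lowest in MIA PaCa-2, at 689 ± 39.8. The nuclear factors were far less abundant per kilobase, led by LRPPRC in MIA PaCa-2 (40.8 ± 5.79) and PANC-1 (47.1 ± 2.38) and by TRMT10C in BxPC-3 (35.3 ± 4.54). MTERF1 was the lowest of the 22 in MIA PaCa-2, at 1.89 ± 0.314 CPM per kilobase.

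Between the untreated lines, the share of the 15 mitochondrial genes called was close to that of all genes in the fit of all 36 libraries. Between BxPC-3 and MIA PaCa-2, 9 of the 15 mitochondrial genes passed an adjusted p of 0.05 in edgeR's quasi-likelihood test with Benjamini-Hochberg adjustment over all genes, against 57.4% of all genes tested. Between BxPC-3 and PANC-1 there were also 9, against 52.5%, but 4 to 6 whenever a DMSO library of either line was left out. Between MIA PaCa-2 and PANC-1 there were 8, against 51.2%, but 13 when only the 9 DMSO libraries were fitted, where the share of all genes was not computed. Both rRNAs were higher in MIA PaCa-2 than in the other lines. MT-RNR2 was higher there than in BxPC-3 (log2 difference, BxPC-3 minus MIA PaCa-2, -1.28, edgeR adjusted p = 0.000753) and than in PANC-1 (MIA PaCa-2 minus PANC-1, 1.1, edgeR adjusted p = 0.00341). Of the mRNAs, MT-ND6 was higher in BxPC-3 than in MIA PaCa-2 by 1.81 on the log2 scale (edgeR adjusted p = 1e-05), and so was MT-ND3 by 1.46 (5.97e-05). Of the 22 nuclear factors, 10, 12 and 7 were called in the same 3 comparisons, below the shares of all genes in the first and last and near it in the second. POLRMT was lower in BxPC-3 than in MIA PaCa-2 (log2 difference -1.0, edgeR adjusted p = 2.86e-06), and SUPV3L1 was lower in BxPC-3 than in MIA PaCa-2 (-1.02) and PANC-1 (-0.88).

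With 1E5, the mitochondrial mRNAs fell in both PANC-1 and MIA PaCa-2 and were not called in BxPC-3. In MIA PaCa-2 all 13 mRNAs and both rRNAs fell, 15 of 15 mitochondrial genes against 47.0% of all genes called, 23.6% higher and 23.4% lower. In PANC-1, 11 of 13 mRNAs fell and both rRNAs rose, 13 of 15 against 39.1% of all genes called, 19.7% higher and 19.3% lower. The 1E5 and DMSO groups did not overlap for 15 of 15 mitochondrial genes in MIA PaCa-2, against 60.5% of all genes, and for 13 of 15 in PANC-1, against 47.6%. The median log2 fold change of the 13 mRNAs was -2.44 in MIA PaCa-2, beside 0.05 over all genes tested, and -1.35 in PANC-1, beside 0.02. Marker genes fell in the same comparisons. Of the keratin and EPCAM list, 3 of 4 tested genes fell in MIA PaCa-2 (median log2 fold change -1.11) and 3 of 5 in PANC-1 (-1.95). The summed level was between 1302 and 1610 CPM with DMSO and between 601 and 645 with 1E5 in MIA PaCa-2. In PANC-1 it was between 3247 and 4974 CPM with DMSO and between 717 and 872 with 1E5. Of the 8 listed markers of other cell types (leukocyte, endothelial, fibroblast, islet and acinar), 3 of 4 tested fell in MIA PaCa-2 (median -5.09) and 2 of 3 in PANC-1 (-1.93). In MIA PaCa-2, CD14, CDH5, COL1A1 and COL3A1 each reached 0 CPM. Such genes pass the filter on low counts through the groups where they are high, so these falls are given as a description only. The summed levels of this list in MIA PaCa-2 ran from 37.5 to 45.4 CPM with DMSO and from 0.196 to 1.6 with 1E5. In PANC-1 they ran from 54.3 to 182 and from 5.67 to 14.9. The list was also low with the other ligands in MIA PaCa-2, at most 13.1 CPM with GW3965 and 18.9 with 3A4. In PANC-1 it was at most 42.1 CPM with 3A4, and from 46.7 to 139 with GW3965, which overlapped DMSO. No mitochondrial mRNA was called lower with GW3965 or 3A4 in these lines. The summed mRNA share in MIA PaCa-2 was lower with both. The leukocyte marker PTPRC was at 0 or near it in all libraries. The part of both lists in the fall of the mitochondrial mRNAs was not tested. In BxPC-3 no gene of any kind was called at an adjusted p of 0.05, 0% of 18042, although 572 had an unadjusted p under 0.05, with 0 of the 37 members among them. All 15 mitochondrial genes overlapped between 1E5 and DMSO there, where 8.51% of all genes did not, and the 95% intervals of the mRNAs' log2 fold changes lay between -0.46 and 0.47.

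**Figure D1:**
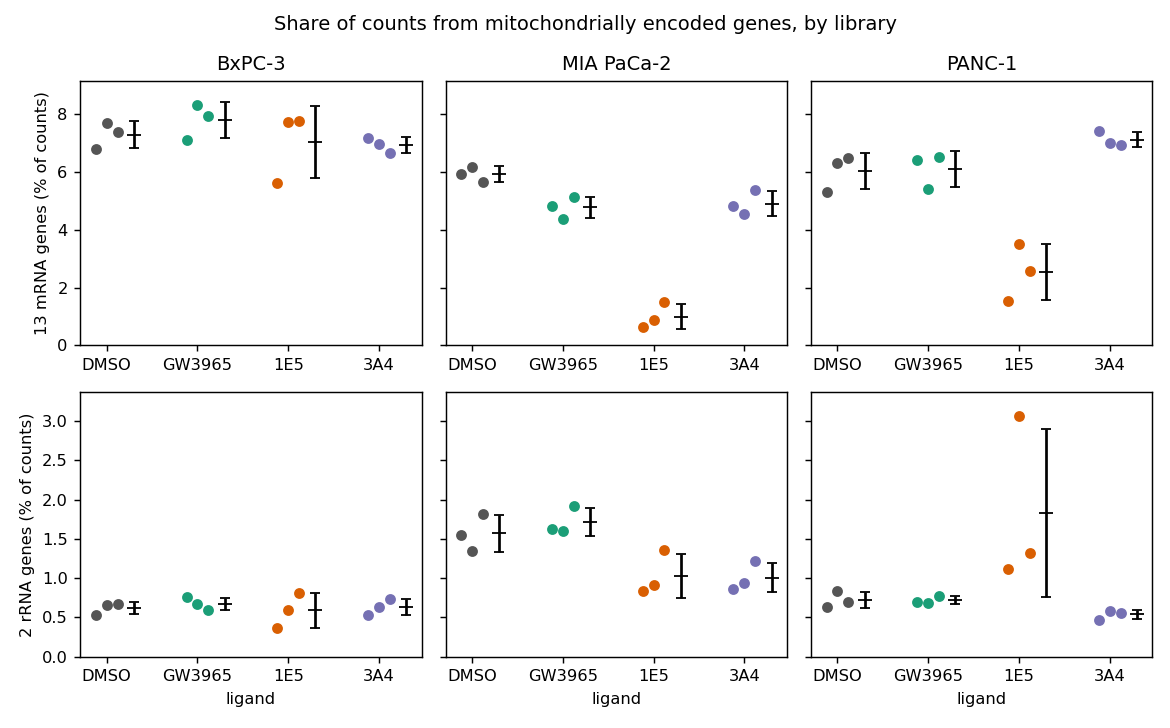
Percent of all counts from the 13 mitochondrial mRNAs (upper panels) and the 2 mitochondrial rRNAs (lower panels) in each library, by line and treatment; points are libraries, and the bars give the mean and SD of 3. With 1E5 the mRNA percent is at most 1.49 in the MIA PaCa-2 libraries and between 1.55 and 3.49 in the PANC-1 libraries, below all DMSO libraries of those lines.

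The share of counts shows the size of the change. The 13 mRNAs took 5.93%, 6.18% and 5.65% of counts in the MIA PaCa-2 DMSO libraries and 0.644%, 0.862% and 1.49% in the 1E5 libraries. In PANC-1 they took 5.32%, 6.32% and 6.48% with DMSO and 1.55%, 3.49% and 2.56% with 1E5. The groups did not overlap in either line, and the exact two-sided permutation test gave p = 0.1, the smallest that 3 against 3 libraries allow (0.231 after Benjamini-Hochberg adjustment over 60 such tests). For the rRNAs the shares were 1.55%, 1.35% and 1.81% with DMSO against 0.836%, 0.911% and 1.35% with 1E5 in MIA PaCa-2, where the highest 1E5 library reached the lowest DMSO library. In PANC-1 they were 0.635%, 0.840% and 0.702% against 1.12%, 3.06% and 1.32%. Every 1E5 library of PANC-1 was above every DMSO library in rRNA share and below every one in mRNA share.

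The ratio of rRNA to mRNA counts within a library does not depend on scaling between libraries, but it does depend on how much rRNA each library kept. In BxPC-3 library 1 with GW3965, nuclear rRNA was 0.0271% of counts, and MT-RNR1 took 0.186% against 0.0847% and 0.0899%. Library 1 of GW3965 in PANC-1 was alike (0.0280%, and 0.0897% against 0.0542% and 0.0549%). Library 1 of 1E5 in PANC-1 had 0.0356% and a middle MT-RNR1 share, 0.203%. The part of rRNA removal was not tested. In MIA PaCa-2 its log2 value moved from -1.93, -2.20 and -1.64 with DMSO to 0.377, 0.080 and -0.135 with 1E5. In PANC-1 it moved from -3.07, -2.91 and -3.21 to -0.473, -0.193 and -0.958. The ratio was thus 4.09 times higher with 1E5 in MIA PaCa-2 (log2 difference 2.03, exact permutation p = 0.1) and 5.74 times higher in PANC-1 (2.52, exact permutation p = 0.1), with no overlap of the groups. In BxPC-3 the means were -3.56 ± 0.109 with DMSO and -3.63 ± 0.342 with 1E5 (SD, n = 3; exact permutation p = 0.8).

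**Figure D2:**
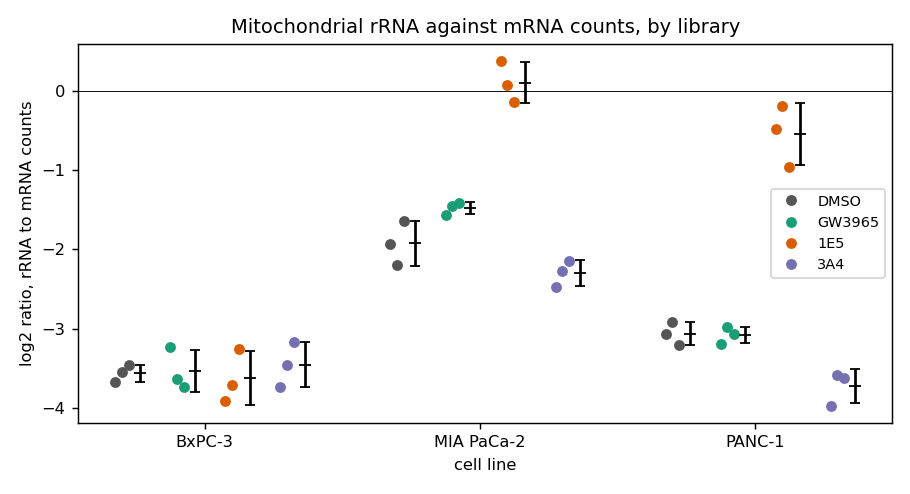
Log2 ratio of mitochondrial rRNA counts to mitochondrial mRNA counts in each library, by line and treatment; points are libraries, and the bars give the mean and SD of 3. The 1E5 libraries of MIA PaCa-2 and PANC-1 lie above the other libraries of their line, and the 3A4 libraries of PANC-1 lie below its DMSO libraries.

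Complex IV, cytochrome c oxidase, passes electrons to oxygen, and its mitochondrial subunits are MT-CO1, MT-CO2 and MT-CO3. In MIA PaCa-2, MT-CO2 stood at 11186, 12328 and 10567 CPM with DMSO and at 551, 678 and 1434 with 1E5. That was the largest fold change of the 37 genes in this line, a log2 fold change of -3.68 (SE 0.30, edgeR adjusted p = 2.34e-06). MT-CO3 went from 12538, 12769 and 14101 CPM to 1099, 1468 and 2348 (log2 fold change -3.0), and MT-CO1 from 15035, 14491 and 15298 to 1195, 1545 and 3051 (-2.95). The groups were apart for all 3 genes, and library 3 was the highest of the 1E5 libraries each time. In PANC-1, MT-CO2 went from 8560.3, 8461 and 9468 CPM to 1401, 2663 and 2656, a log2 fold change of -1.98 (SE 0.22, edgeR adjusted p = 4.51e-05). MT-CO3 there went from 7573, 7830.2 and 8342 to 1504, 2546 and 2098 CPM (-1.95). MT-CO1 went from 12347, 15376 and 15018 to 2764, 11706 and 5826 CPM, with 1E5 library 2 just below the lowest DMSO library. Its log2 fold change of -1.07 (SE 0.37, edgeR adjusted p = 0.0381) was the least firm of the PANC-1 mRNA calls: it was lost in 5 of 13 alternative fits, where the adjusted p reached 0.123, while without library 2 the fold change was -1.73 (edgeR adjusted p = 0.000459).

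In BxPC-3 the same genes showed no such gap. MT-CO2 stood at 11754, 12284 and 11876 CPM with DMSO and 7968, 11949.8 and 13048 with 1E5. Library 1 of the 1E5 group was the lowest and the other libraries were at the DMSO level, and the 95% interval of the log2 fold change ran from -0.46 to 0.22.

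Complex III has a single mitochondrial subunit, the cytochrome b of MT-CYB, which carries its electron path across the membrane. MT-CYB showed the largest fall in PANC-1, from 3103, 3626 and 3902 CPM with DMSO to 693, 851 and 776 with 1E5, a log2 fold change of -2.20 (SE 0.13, edgeR adjusted p = 8.59e-07). The 1E5 libraries lay close together here, library 2 included. In MIA PaCa-2, MT-CYB went from 1888, 2077 and 1574 to 186, 241 and 361 CPM (log2 fold change -2.81), again without overlap.

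The membrane part of ATP synthase includes MT-ATP6 and MT-ATP8, which are translated from one mRNA. In MIA PaCa-2, MT-ATP6 went from 2831, 3158 and 2076 to 221, 281 and 458 CPM with 1E5 (log2 fold change -3.07). MT-ATP8, its overlapping neighbour, went from 1054, 1056 and 1063 to 184, 203 and 347 (-2.11). Both fell without overlap of the groups, and MT-ATP6 by more. In PANC-1, MT-ATP6 went from 1595, 1877 and 2036 to 392, 619 and 503 CPM (-1.86) and MT-ATP8 from 1187, 1291 and 1422 to 258, 373 and 349 (-1.99). There the pair fell by about the same amount. Reads in their 46 shared bases may count for both, and the part of that overlap was not tested.

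Complex I, which oxidises NADH, takes 7 subunits from the mitochondrial genome. In MIA PaCa-2, MT-ND1, the first mRNA after the rRNAs, went from 1787, 1773 and 1413 to 384, 484 and 786 CPM with 1E5. Its log2 fold change of -1.59 (SE 0.22, edgeR adjusted p = 9.49e-05) was the smallest of the 13 mRNAs in that line. MT-ND2 went from 2585, 2920.2 and 2059 to 376, 431 and 865 CPM (log2 fold change -2.18), and MT-ND3 from 376, 386 and 393 to 42.2, 39.5 and 133 (-2.43). Library 3 of 1E5 was the highest in each case and still below every DMSO library. MT-ND4L went from 2358, 2548 and 1794 to 259, 304 and 558 CPM (-2.58), MT-ND4 from 7749, 8627 and 6717 to 1116, 1498 and 2749 (-2.11), and MT-ND5 from 2397, 2206 and 1774 to 388, 506 and 631 (-2.06). The bicistronic pair MT-ND4L and MT-ND4 thus fell together in this line.

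The same complex I genes were uneven among the 1E5 libraries of PANC-1. MT-ND3 went from 1188, 1192 and 1175 CPM to 207, 304 and 353 (log2 fold change -2.04) and MT-ND2 from 3168, 3352 and 3673 to 1271, 1590.3 and 1595 (-1.19). MT-ND1 went from 1834, 2136 and 2141 to 1014, 1252 and 1165 (-0.83). In these 3 genes library 2 lay with or near its group. MT-ND5 went from 2521, 3826 and 3377 to 768, 2469.6 and 1284 CPM (-1.10, edgeR adjusted p = 0.018). MT-ND4 stood at 8754, 10684 and 11066 with DMSO and 3663, 13516 and 6278 with 1E5 (-0.38, edgeR adjusted p = 0.416), and MT-ND4L at 1494, 2067 and 2164 and 607, 1931 and 1024 (-0.69, edgeR adjusted p = 0.11). Library 2 exceeded every DMSO library in MT-ND4 and overlapped them in MT-ND4L, and these were the 2 mRNAs not called. Without that library all 13 mRNAs were called lower, with a median log2 fold change of -2.03, MT-ND4 at -1.03 (edgeR adjusted p = 0.00254), MT-ND4L at -1.22 (edgeR adjusted p = 0.0015) and MT-ND5 at -1.66 (edgeR adjusted p = 0.000197). With library 2 kept, the MT-ND5 call was lost in 3 of 13 alternatives, with an adjusted p of up to 0.0779.

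MT-ND6, the only mRNA of the other strand, fell with the heavy-strand genes. In MIA PaCa-2 it went from 404, 372 and 373 to 49.1, 58.2 and 105 CPM with 1E5, a log2 fold change of -2.44 (SE 0.26, edgeR adjusted p = 1.29e-05). In PANC-1 it went from 629.6, 950.5 and 817 to 127, 557 and 256 CPM, a log2 fold change of -1.35 (SE 0.39, edgeR adjusted p = 0.0177), with library 2 nearest to DMSO. That call was lost in 3 of 13 alternatives (adjusted p up to 0.0717), and without library 2 the fold change was -2.06 (edgeR adjusted p = 0.00022). The log2 ratio of MT-ND6 to the summed heavy-strand mRNAs rose with 1E5 from -7.33 ± 0.0936 to -7.00 ± 0.0616 in MIA PaCa-2 (SD, n = 3; exact permutation p = 0.1) without overlap, and in PANC-1 it was -6.24 ± 0.196 with DMSO and -6.52 ± 0.341 with 1E5 (exact permutation p = 0.3). The strand setting of the authors' counting is not given in the sources used here, and if strand was not used, reads of MT-ND6 and of the heavy-strand RNA opposite it cannot be told apart.

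**Figure D3:**
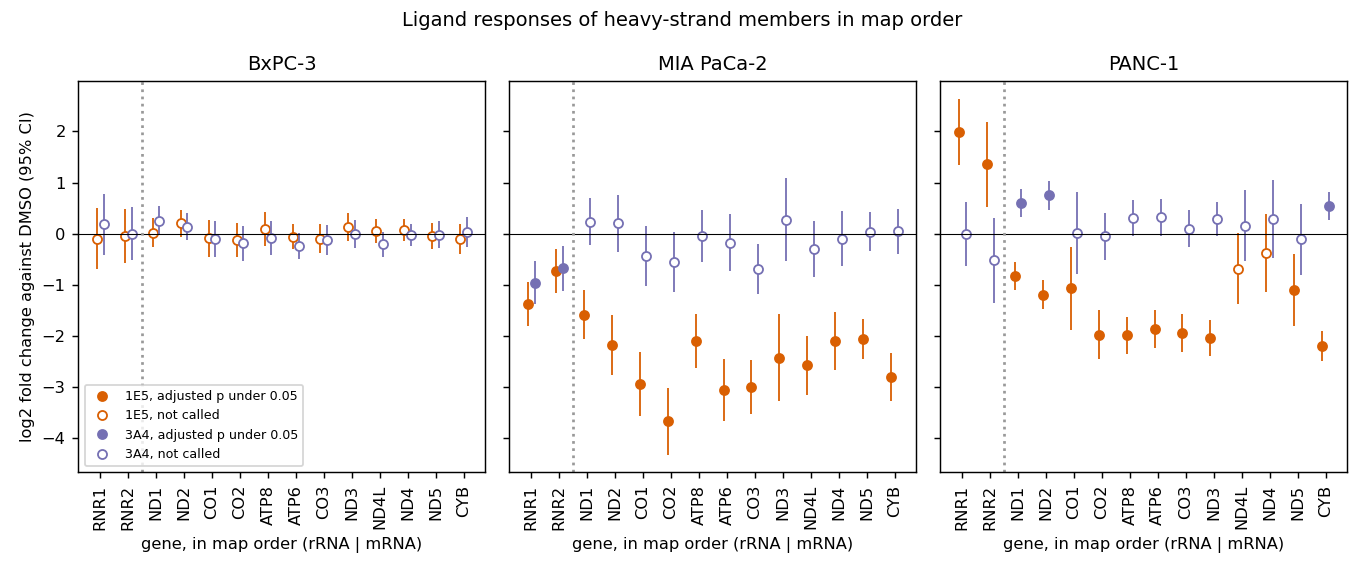
Log2 fold change against DMSO of the 14 heavy-strand genes in map order, rRNAs left of the dotted line and mRNAs right of it, for 1E5 and 3A4 in each line; bars are 95% confidence intervals of the edgeR fit, and filled points have an adjusted p under 0.05. With 1E5 both rRNAs are above 0 in PANC-1 and the mRNAs are below 0 in both MIA PaCa-2 and PANC-1, with MT-ND1 the least negative in MIA PaCa-2.

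Along the heavy strand the change was not a steady gradient. The median log2 fold change with 1E5 of the first mRNAs on the map, MT-ND1 and MT-ND2, was -1.01 in PANC-1 and -1.88 in MIA PaCa-2. The other heavy-strand mRNAs had medians of -1.91 and -2.70. Spearman's correlation of fold change with map position was -0.13 in PANC-1 and 0.04 in MIA PaCa-2 over 12 genes that share libraries and neighbouring bases, which is given as a description only. In the plot of fold changes by map order, the mRNAs downstream of MT-ND2 differ from each other without following their distance from the rRNAs.

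With 1E5 both rRNAs rose in PANC-1, against the direction of the mRNAs, and both fell in MIA PaCa-2, by less than the mRNAs. MT-RNR1 (chromosome M 648 to 1601), the rRNA of the small mitochondrial ribosomal subunit, stood at 545, 777 and 478 CPM in PANC-1 with DMSO and at 1917, 3459 and 1777 with 1E5. Every 1E5 library was above every DMSO library, a log2 fold change of 1.99 (SE 0.30, edgeR adjusted p = 0.000347), or -1.37 (SE 0.20, edgeR adjusted p = 0.000133) in MIA PaCa-2, where the levels went from 2044, 1447 and 1987 to 646, 663 and 806. MT-RNR2 (chromosome M 1671 to 3229), the rRNA of the large subunit, stood at 5899, 7547 and 6515 CPM in PANC-1 with DMSO and 8649.9, 31853 and 10664 with 1E5. Library 2 was about 3 times the other 1E5 libraries, and the log2 fold change was 1.36 (SE 0.38, edgeR adjusted p = 0.0154). Without that library MT-RNR2 was still called higher, by 0.54 (edgeR adjusted p = 0.00786), and MT-RNR1 by 1.63 (0.000504), but the MT-RNR2 call was lost in 2 of 13 alternatives, in a fit of the compared groups alone and without DMSO library 1 (adjusted p up to 0.0728). Without library 2 the log2 ratio of rRNA to mRNA rose by 2.35. In MIA PaCa-2, MT-RNR2 went from 14240.1, 12648 and 16979 to 7213, 7515 and 11784 CPM, a log2 fold change of -0.73 (SE 0.20, edgeR adjusted p = 0.00985), and this call was lost when all 36 libraries were fitted together (adjusted p = 0.102).

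The response to 1E5 differed among the 3 lines for all 15 mitochondrial genes by the interaction of ligand and line in a fit of all 36 libraries, against 38.5% of all genes tested. Between PANC-1 and MIA PaCa-2 alone, 10 of 15 differed, against 28.4%. The widest gap was in MT-RNR1, whose log2 response was higher in PANC-1 by 3.25 (edgeR adjusted p = 6.37e-07), followed by MT-RNR2 at 1.97. Among the mRNAs, MT-ND4L (1.79), MT-CO1 (1.77), MT-ND4 (1.62) and MT-CO2 (1.60) fell less in PANC-1. These differences between the lines include library 2 of PANC-1 with 1E5 and were not computed without it. Against DMSO in PANC-1, leaving it out took MT-ND4L from -0.69 to -1.22, MT-CO1 from -1.07 to -1.73 and MT-ND4 from -0.38 to -1.03. MT-CO2 went from -1.98 to -2.12 and MT-RNR2 from 1.36 to 0.54, nearer to MIA PaCa-2 each time. MT-ATP8 (0.02), MT-ND3 (0.29) and MT-CYB (0.52) were among the 5 not called to differ between these lines.

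The nuclear factors moved less and in both directions. With 1E5, 4 of 22 were called in MIA PaCa-2, 2 higher and 2 lower, and 11 of 22 in PANC-1, 4 higher and 7 lower. The first is a smaller share than the 47.0% of all genes, and the second is near the 39.1%. Their median log2 fold change was -0.14 in PANC-1 and 0.07 in MIA PaCa-2. In BxPC-3 none was called, with log2 fold changes between -0.41 and 0.28.

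**Figure D4:**
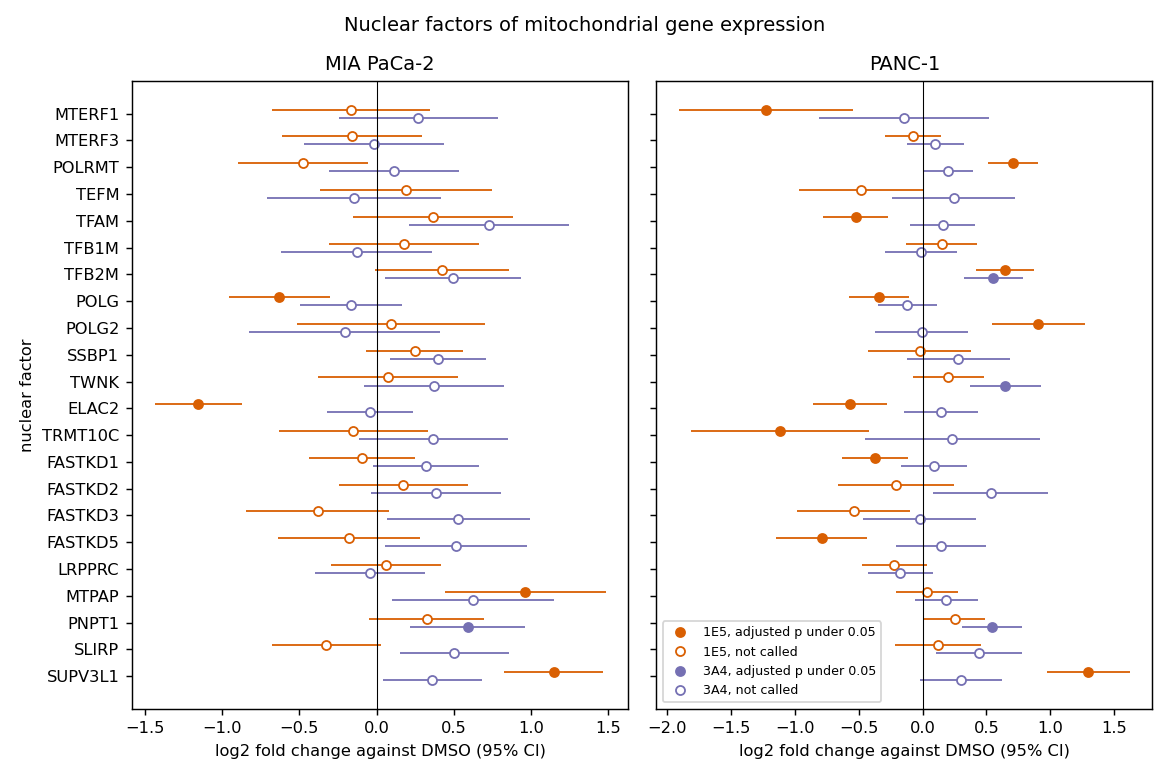
Log2 fold change against DMSO of the 22 nuclear factors, grouped by role, for 1E5 and 3A4 in MIA PaCa-2 and PANC-1; bars are 95% confidence intervals of the edgeR fit, and filled points have an adjusted p under 0.05. SUPV3L1 is higher with 1E5 in both lines, at 1.3 in PANC-1 and 1.15 in MIA PaCa-2, and ELAC2 is lower in both, at -0.57 and -1.15.

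Factors of RNA decay and stability included the largest rise. SUPV3L1 (chr10:69180232-69209099 on GRCh38, plus strand), the helicase that unwinds RNA for degradation, stood in MIA PaCa-2 at 55.9, 64.3 and 57.4 CPM with DMSO and 127, 123 and 143 with 1E5, a log2 fold change of 1.15 (SE 0.15, edgeR adjusted p = 5.98e-05). In PANC-1 it stood at 57.9, 49.0 and 51.3 and 156, 98.6 and 135 CPM, a log2 fold change of 1.3 (SE 0.15, edgeR adjusted p = 5.6e-05). Every 1E5 library lay above every DMSO library in both lines, while BxPC-3 had 25.8, 27.1 and 24.4 with DMSO and 30.9, 28.0 and 25.1 with 1E5. MTPAP, the polymerase that adds the poly(A) tails of mitochondrial mRNAs, rose in MIA PaCa-2 from 20.1, 25.4 and 15.7 to 37.5, 41.4 and 41.8 CPM (log2 fold change 0.96, SE 0.24, edgeR adjusted p = 0.00567) and was at 0.04 in PANC-1, not called. LRPPRC, the most abundant nuclear member in 2 lines, was not called in either line (0.06 and -0.22), nor were SLIRP and PNPT1. Without library 2 of 1E5, LRPPRC was called lower in PANC-1, by -0.37 (edgeR adjusted p = 0.00168), and PNPT1 higher, by 0.34 (0.018). Of the FASTK proteins, which act on the maturation of particular mitochondrial RNAs, FASTKD5 fell in PANC-1 (-0.79, edgeR adjusted p = 0.00275), and FASTKD1 fell by a smaller amount (-0.37, edgeR adjusted p = 0.0267) that was lost without library 2 of 1E5 (adjusted p = 0.0621). FASTKD2 and FASTKD3 were not called with 1E5 in any line.

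Of the enzymes that free the RNAs from the primary transcript, ELAC2 fell in both lines and TRMT10C in PANC-1. ELAC2 (chr17:12992391-13018187, minus strand), which cuts at the 3′ end of tRNAs, went in MIA PaCa-2 from 160.3, 144 and 146 to 72.8, 67.4 and 61.9 CPM, a log2 fold change of -1.15 (SE 0.13, edgeR adjusted p = 2.23e-05), with no overlap. In PANC-1 it went from 78.9, 58.1 and 73.6 to 45.3, 55.0 and 42.0 CPM (-0.57, edgeR adjusted p = 0.00582). TRMT10C, a subunit of the enzyme that cuts at the 5′ end, stood in PANC-1 at 46.8, 46.7 and 52.6 CPM with DMSO and 30.0, 9.23 and 28.2 with 1E5. Library 2 was lowest by a factor of about 3, and the log2 fold change was -1.11 (SE 0.32, edgeR adjusted p = 0.0165); the adjusted p reached 0.070 in a fit of the compared groups alone, and without library 2 the fold change was -0.74 (edgeR adjusted p = 0.000665). In MIA PaCa-2 TRMT10C was at -0.15, not called.

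Of the 7 factors of transcription, 2 rose and 2 fell with 1E5 in PANC-1, and 0 were called in MIA PaCa-2. POLRMT, the RNA polymerase, rose in PANC-1 from 54.8, 49.4 and 50.8 to 83.4, 85.9 and 83.8 CPM with 1E5, a log2 fold change of 0.71 (SE 0.09, edgeR adjusted p = 0.000114), and its partner TFB2M rose from 30.3, 25.2 and 28.5 to 42.7, 45.8 and 42.6 (0.64). TFAM, which packages mitochondrial DNA and activates its promoters, fell there from 98.4, 91.5 and 107 to 68.1, 61.3 and 77.3 CPM, a log2 fold change of -0.52 (SE 0.12, edgeR adjusted p = 0.00437). Polymerase and packaging factor thus moved in opposite directions, each without overlap. In MIA PaCa-2 POLRMT was at -0.48, edgeR adjusted p = 0.0603 and TFAM at 0.37, edgeR adjusted p = 0.227, and the responses of the 2 lines differed for POLRMT (PANC-1 minus MIA PaCa-2, 1.08, edgeR adjusted p = 0.00035) and for TFAM (-0.98, edgeR adjusted p = 0.00701). MTERF1, which binds the MT-TL1 site printed above, fell in PANC-1 from 11.8, 13.2 and 17.3 to 6.91, 4.35 and 6.81 CPM, a log2 fold change of -1.23 (SE 0.31, edgeR adjusted p = 0.00884). In MIA PaCa-2 it was at -0.17, not called. TFB1M, TEFM and MTERF3 were not called with 1E5 in either line.

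Among the genes that copy mitochondrial DNA, POLG, the catalytic subunit of its polymerase, fell in MIA PaCa-2 from 72.0, 64.9 and 77.2 to 43.6, 43.2 and 51.3 CPM (log2 fold change -0.63, SE 0.15, edgeR adjusted p = 0.00455) and in PANC-1 from 73.9, 79.5 and 75.2 to 56.7, 69.8 and 54.1 (-0.34, edgeR adjusted p = 0.0257). The accessory subunit POLG2 rose in PANC-1 from 10.1, 11.9 and 11.4 to 18.4, 26.5 and 17.8 CPM (log2 fold change 0.91, SE 0.17, edgeR adjusted p = 0.00135) and was at 0.09 in MIA PaCa-2. The catalytic and accessory subunits thus moved apart in PANC-1. The POLG call there was lost in 5 of 13 alternatives, 4 of them left-out-library fits (adjusted p up to 0.103). The helicase TWNK and the single-strand binding protein SSBP1 were not called with 1E5. The sets of mitochondrial and nuclear genes differed in how they moved: a common fall of the mRNAs stood beside calls in both directions among the factors.

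The promoters of TFAM and POLRMT are shown because both carry the letters of nuclear respiratory factor 1 (NRF1), a regulator of nuclear genes for mitochondria, and yet their mRNAs moved in opposite directions with 1E5 in PANC-1. Each runs from 250 bases before to 50 after the RefSeq start, on GRCh38.p14: TFAM at chr10:58385160-58385459 on the plus strand and POLRMT at chr19:633488-633787 on the minus strand. Capitals mark matches to GCGCANGCG on either strand, overlapping matches included.
TFAM promoter: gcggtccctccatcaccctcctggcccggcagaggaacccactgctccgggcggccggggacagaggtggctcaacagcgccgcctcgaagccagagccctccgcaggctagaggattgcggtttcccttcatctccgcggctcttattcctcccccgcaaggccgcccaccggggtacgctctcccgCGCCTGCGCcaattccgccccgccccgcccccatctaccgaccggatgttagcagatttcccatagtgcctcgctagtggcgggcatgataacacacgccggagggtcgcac
POLRMT promoter: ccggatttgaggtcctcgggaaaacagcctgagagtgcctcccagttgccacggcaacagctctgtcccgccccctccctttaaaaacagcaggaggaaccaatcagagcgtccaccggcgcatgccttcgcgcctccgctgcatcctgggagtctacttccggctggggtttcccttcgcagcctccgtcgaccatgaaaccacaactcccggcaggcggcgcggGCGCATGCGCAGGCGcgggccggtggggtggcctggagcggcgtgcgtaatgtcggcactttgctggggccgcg

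RefSeq promoters were matched for 19 of the 22 factors, and 6 of them (31.6%) held these letters: MTPAP, POLG2, POLRMT, TFAM, TFB1M and TFB2M. Of all 35116 promoters of the same length, 2640 (7.52%) held them. With 1E5 in PANC-1 the holders included risers (POLG2, POLRMT, TFB2M), TFAM, which fell, and 2 that were not called. NRF1 itself was lower with 1E5 in MIA PaCa-2 (-0.81 on the log2 scale) and higher in PANC-1 (0.38). A match is a description of the letters and not evidence of binding.

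Other genes of the pathway were counted from lists by role, to be read against the 47.0% of all genes called with 1E5 in MIA PaCa-2 (23.6% higher and 23.4% lower) and the 39.1% in PANC-1 (19.7% and 19.3%). In MIA PaCa-2 with 1E5, 32 of 49 proteins of the large mitochondrial ribosomal subunit were lower and 0 higher (median log2 fold change -0.59), led by MRPL28 (-1.57), MRPL16 (-1.51) and MRPL12 (-1.11). The small subunit had 18 of 32 lower and 1 higher, and the elongation factor TUFM fell by 1.85 on the log2 scale among 6 lower and 2 higher of 13 translation factors. Mitochondrial aminoacyl-tRNA synthetases had 9 of 17 lower and 1 higher. In PANC-1 the same lists had no common direction: 7 higher and 5 lower of 49, 6 and 6 of 32, 4 and 1 of 13, and 4 and 5 of 17. MRPL2 rose there by 1.17 on the log2 scale and MRPL16 was lower again at -0.68.

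Genes of mitochondrial DNA maintenance outside the members had 3 higher and 6 lower of 15 in MIA PaCa-2 and 8 higher and 2 lower in PANC-1 with 1E5. DNA2, a nuclease and helicase that trims replication intermediates, was lower in both (-1.23 and -1.71), and SLC25A33, a pyrimidine nucleotide carrier, rose in PANC-1 (1.19). RNA processing genes had 3 higher and 8 lower of 23 in MIA PaCa-2, and 4 higher and 5 lower in PANC-1, the same share as of all genes in both lines; HSD17B10, a partner of TRMT10C, was lower in both (-1.35 and -0.76). The mitochondrial protease LONP1 rose in PANC-1 (0.95) among 3 higher and 1 lower of 7, while in MIA PaCa-2 1 was higher and 3 lower. Of the mitophagy list, 5 of 11 were higher and 2 lower in MIA PaCa-2 and 2 of 12 higher and 0 lower in PANC-1; the cargo receptor SQSTM1 rose by 2.33 and 1.65. Of the regulators of mitochondrial biogenesis, 0 were higher and 2 lower of 8 in MIA PaCa-2 and 2 higher and 1 lower of 9 in PANC-1.

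The mitochondrial tRNA genes divided as well. With 1E5, 11 of 22 were lower and 1 higher in MIA PaCa-2 (median log2 fold change -1.47), and 7 lower and 4 higher in PANC-1 (median -0.68). The 1 higher in MIA PaCa-2 was MT-TL1, at the rRNA boundary, from 9.93 ± 2.46 CPM with DMSO to 21.0 ± 3.24 with 1E5 (SD, n = 3; log2 fold change 1.05, edgeR adjusted p = 0.00835). It was also higher in PANC-1, from 18.7 ± 1.26 to 27.2 ± 4.77 CPM (0.54, edgeR adjusted p = 0.0363). The other 3 higher in PANC-1 were MT-TF (1.70) and MT-TV (1.3), which flank MT-RNR1, and MT-TM (1.29); these names were chosen after their values were seen. MT-TL2 (-3.48 and -2.76) and MT-TS2 (-3.52 and -2.85), among the mRNAs of the map, were lower in both lines. The tRNA genes higher with 1E5 were higher with 3A4 as well: MT-TL1 in MIA PaCa-2 (1.07, edgeR adjusted p = 0.0282) and, in PANC-1, MT-TL1 (1.58), MT-TF (2.24), MT-TV (1.62) and MT-TM (1.59), where neither rRNA was called higher with 3A4.

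Nuclear copies of mitochondrial DNA can take or give reads to the genuine genes. Of 20 listed pseudogenes 14 had a row, and with 1E5 all 11 that were tested fell in MIA PaCa-2 (median log2 fold change -3.15) and 8 of 11 fell in PANC-1 (median -1.50). MTCO1P12, a copy of MT-CO1, was at 2550 ± 121 CPM with DMSO and 245 ± 116 with 1E5 in MIA PaCa-2. The copies thus moved in the direction of the genes they resemble, and how the authors' counting shared reads between them is not given in the sources used here.

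3A4, given at the same dose and time, moved few of these genes. In BxPC-3 none of the 37 genes was called, against 0.0333% of all genes; 1 had an unadjusted p under 0.05. In MIA PaCa-2, 1 was higher and 2 were lower, against a background of 13.8% called, 7.30% higher and 6.45% lower. In PANC-1, 6 were higher, against 7.37% called, 3.53% higher and 3.84% lower. The 13 mRNAs had median log2 fold changes of 0.28 in PANC-1, -0.05 in MIA PaCa-2 and -0.04 in BxPC-3, beside 0.01, 0.03 and 0.00 over all genes tested. The 3A4 and DMSO groups did not overlap for 5 of the 15 mitochondrial genes in MIA PaCa-2, against 36.1% of all genes, and for 7 in PANC-1, against 37.3%. In BxPC-3 they did not overlap for 5, against 19.1%. By the interaction with line, the response to 3A4 differed among the lines for 1 of the 37 members, PNPT1, against 5.89% of all genes. These comparisons share their DMSO libraries with those of 1E5.

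In MIA PaCa-2 the mitochondrial genes called lower with 3A4 were the rRNAs. None of the 13 mRNAs was called, though MT-CO3 was at -0.70 and MT-CO2 at -0.56 on the log2 scale. The summed mRNA share was lower with 3A4, 4.82%, 4.54% and 5.36% against 5.93%, 6.18% and 5.65% with DMSO. Those groups did not overlap (exact permutation p = 0.1). MT-RNR1 went from 2044, 1447 and 1987 CPM with DMSO to 1123, 716 and 972 with 3A4 (log2 fold change -0.96, SE 0.20, edgeR adjusted p = 0.0101), and MT-RNR2 from 14240.1, 12648 and 16979 to 7686, 8697 and 10969 (log2 fold change -0.68, SE 0.20, edgeR adjusted p = 0.0412). Neither overlapped DMSO, but the MT-RNR2 call was lost in 8 of 14 alternatives and the MT-RNR1 call in 0. PNPT1, the nuclease partner of SUPV3L1, rose from 50.1, 56.9 and 58.9 to 71.3, 107 and 70.7 CPM (log2 fold change 0.59, SE 0.17, edgeR adjusted p = 0.0403), a call lost in 6 of 14. Of the other nuclear factors, TFAM reached 100.2, 189 and 97.8 CPM with 3A4 (0.73, edgeR adjusted p = 0.0615), with library 2 well above the others.

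In PANC-1 with 3A4, 3 mRNAs and 3 nuclear factors rose and none fell. MT-ND2 went from 3168, 3352 and 3673 CPM with DMSO to 6221, 5390.2 and 5489 with 3A4 (log2 fold change 0.75, SE 0.13, edgeR adjusted p = 0.00667). MT-ND1 went from 1834, 2136 and 2141 to 3419.6, 2972 and 2822 (0.59, edgeR adjusted p = 0.0171), and MT-CYB from 3103, 3626 and 3902 to 5613, 5366 and 4537 (0.55, edgeR adjusted p = 0.0267). None overlapped DMSO, and MT-ND2 alone kept its call in all 14 alternatives. The DNA helicase TWNK rose to 64.7, 60.1 and 61.6 CPM from 43.7, 34.7 and 40.5 (0.65, edgeR adjusted p = 0.0127), TFB2M to 41.1, 42.7 and 39.4 from 30.3, 25.2 and 28.5 (0.55, edgeR adjusted p = 0.011), and PNPT1 to 108, 105 and 109 from 81.0, 67.7 and 71.8 (0.54, edgeR adjusted p = 0.0135). These 3 groups were apart from DMSO, and each call was lost when at least 1 library was left out. The rRNA share was lower with 3A4, 0.472%, 0.584% and 0.562% against 0.635%, 0.840% and 0.702% (exact permutation p = 0.1), and the log2 ratio of rRNA to mRNA was lower by 0.66, the direction opposite to that with 1E5.

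Set against each other at 10 µM and 48 h, 3A4 and 1E5 differed in the mitochondrial genes in 2 of the 3 lines. Calls were adjusted over all genes of each fit, in 3 comparisons of the pair. In MIA PaCa-2 all 13 mRNAs were higher with 3A4 than with 1E5 (median log2 difference 2.38), against 32.4% of all genes called, 17.2% higher and 15.1% lower, and neither rRNA was called, with 95% intervals between -0.39 and 0.83. In PANC-1, 11 of 13 mRNAs were higher with 3A4 (median 1.93), against 37.3%, 18.5% higher and 18.8% lower, led by MT-CYB (log2 difference 2.74, SE 0.14, edgeR adjusted p = 1e-06). Of these, the calls of MT-ND6, MT-ND5 and MT-CO1 were lost in 7, 6 and 5 of 13 alternatives, with adjusted p up to 0.128, 0.0961 and 0.112. Both rRNAs were lower with 3A4 there, MT-RNR1 by -2.0 and MT-RNR2 by -1.88 on the log2 scale. Over 13 alternatives, leaving out library 2 of 1E5 among them, the MT-RNR2 difference ran from -2.20 to -1.07, and its call was lost in 0. In BxPC-3 none of the 15 was called, against 0.144% of all genes, 1 mRNA had an unadjusted p under 0.05, and the 95% intervals of the mRNAs' log2 differences lay between -0.52 and 0.52.

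Of the 22 nuclear factors, 7 differed between the compounds in MIA PaCa-2, at about the 32.4% of all genes, and 12 in PANC-1, against 37.3%. In MIA PaCa-2, 6 were higher and 1 lower with 3A4: ELAC2 (1.11, edgeR adjusted p = 4.75e-05) led those higher, with FASTKD3, SLIRP, FASTKD5, POLRMT and POLG, and SUPV3L1 was lower (-0.78, edgeR adjusted p = 0.00132). In PANC-1, 9 were higher and 3 lower. TRMT10C (1.35, edgeR adjusted p = 0.00652) and MTERF1 (1.08, edgeR adjusted p = 0.0179) led those higher, with FASTKD5, FASTKD2, TEFM, ELAC2, TFAM, FASTKD1 and TWNK. SUPV3L1 (-1.0, edgeR adjusted p = 0.000345), POLG2 (-0.91) and POLRMT (-0.51) were lower. ELAC2 and FASTKD5 were thus higher, and SUPV3L1 lower, with 3A4 than with 1E5 in both lines. The calls of ELAC2 and SUPV3L1 held in every alternative run. In MIA PaCa-2 those of POLRMT, POLG and FASTKD5 were lost in 6, 5 and 3 of 14 alternatives (adjusted p up to 0.145, 0.119 and 0.0926), and in PANC-1 those of MTERF1, TEFM, TWNK and FASTKD2 in 3, 2, 2 and 1 of 13 (up to 0.0846, 0.0849, 0.0718 and 0.0573).

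GW3965 produced no call among the 37 genes in any line, where edgeR called 0.0485% of all genes in PANC-1, 0.523% in MIA PaCa-2 and 1.32% in BxPC-3, and 0.104% by the interaction with line. At an unadjusted p under 0.05 there were 0 members in PANC-1, 4 mitochondrial and 2 nuclear members in BxPC-3, and 2 and 2 in MIA PaCa-2; DESeq2 called 1 nuclear factor in BxPC-3 and none of the other members. The mRNA share in MIA PaCa-2 was 4.82%, 4.39% and 5.12%, below the 3 DMSO libraries. The groups did not overlap for 8 of 15 mitochondrial genes there, against 13.7% of all genes, and the median log2 fold change of the 13 mRNAs was -0.34, with 95% intervals from -1.01 to 0.64. In PANC-1 the share of 6.40%, 5.41% and 6.52% lay within the DMSO range or just above it, and the median was 0.04. There the groups overlapped for all 15 mitochondrial genes, where 11.9% of all genes did not overlap. In BxPC-3 the mRNAs lay the other way, with a median of 0.18, and 6 of 15 mitochondrial genes did not overlap, against 17.3% of all genes.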

How the data were processed

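The authors deposited gene counts for 36 libraries. Per the submitters' processing notes, Trim Galore 0.4.4, HISAT2 2.0.2, SAMtools 1.3, StringTie 1.3.1c and GRCh38 were used; the annotation, the strand setting and any rRNA removal are not stated in the sources used here. Of 58658 lines, 415 named no gene and were left out (at most 0.00396% of a library's counts). The members and lists were chosen with earlier results of these data known. Per line, 12 libraries were fitted with edgeR 4.0.16 (R 4.3.3, limma 3.58.1; TMM scaling, filterByExpr with a minimum count of 10, quasi-likelihood tests, no replicate block), with Benjamini-Hochberg adjustment over all genes tested (18544 in PANC-1, 16254 in MIA PaCa-2, 18042 in BxPC-3) and a threshold of 0.05. Levels are CPM on totals scaled by TMM within each line; levels per kilobase are scaled over all 36 libraries. Ligand by line interactions and untreated lines used 1 fit of 36 libraries (22132 genes). Shares and ratios (0.5 added to each sum) were compared by exact permutation. Replicates of a group differed by more than sampling noise (chi-square per degree of freedom 8.62 to 155). Values in every library are given for members called at 2-fold or more or leading their role. The test was tested on simulated counts for 1E5 against DMSO in MIA PaCa-2 (15716 genes): 42.3% of 2-fold and 90.6% of 4-fold changes were recovered, and 4.38% of calls were false. Only 104 genes were changed 2-fold and 96 were changed 4-fold there, all of them well counted. In the real comparison 47.0% of genes were called, so these rates may not carry over to it or to members with low counts. Alternatives were DESeq2 1.42.0, RLE scaling, scaling on nuclear genes, no filter, other sets of libraries, a replicate block and leaving out each library.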

Additional observations from a re-analysis of the deposited data

Results flagged for a closer look

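The response to 1E5 differed among the 3 lines, by the edgeR interaction test of ligand and line adjusted over all genes, in all 15 mitochondrially encoded genes and 9 of 22 nuclear factors. Of all genes 38.5% differed, so the count of nuclear factors is near that background. Among complex III, IV and ATP synthase genes the adjusted p was 1.55e-08 for MT-CYB, 2.8e-08 for MT-CO3, 6.89e-08 for MT-CO2, 3.83e-05 for MT-CO1, 1.06e-07 for MT-ATP6 and 1.09e-06 for MT-ATP8. Among complex I genes it was 8.39e-05 for MT-ND1, 2.23e-06 for MT-ND2, 1.9e-05 for MT-ND3, 0.000244 for MT-ND4, 1.49e-05 for MT-ND4L, 0.000158 for MT-ND5 and 0.000221 for MT-ND6. For the rRNAs it was 9.93e-07 (MT-RNR1) and 0.00172 (MT-RNR2). In each of the 13 mRNAs the fold change against DMSO was nearest to 1 in BxPC-3, the line kept in another medium, and line and medium cannot be told apart.

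Of the nuclear factors, the adjusted p of the interaction with 1E5 was 4.4e-05 for SUPV3L1, 0.000521 for ELAC2, 0.000625 for POLRMT, 0.00892 for MTPAP, 0.0155 for TFAM, 0.0163 for TRMT10C, 0.0329 for POLG, 0.0471 for FASTKD5 and 0.0487 for MTERF1. With 3A4, PNPT1 was the 1 member whose response differed among the lines (adjusted p = 0.0247), at log2 fold changes of 0.52 in PANC-1, 0.69 in MIA PaCa-2 and -0.11 in BxPC-3. That compares with 5.89% of all genes for 3A4.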

How the results depend on the processing

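Of 72 counts and library values, recomputed under 828 alternatives in all, 783 of these were classed as the same and 45 as moved. Scaling by RLE or on nuclear genes moved no count. A change of sign alone was not classed as a move, and some differences changed sign with a library left out. For 1E5 against DMSO in BxPC-3, the difference in log2 ratio of rRNA to mRNA then ran from -0.252 to 0.082. The difference there in percent of counts from the 15 mitochondrial genes ran from -0.761 to 0.538. With the 13 mRNAs alone, the difference in percent of counts in MIA PaCa-2 was -4.93 with 1E5 and -1.01 with 3A4, against -5.46 and -1.58 for all 15 genes. For 3A4 against DMSO in MIA PaCa-2, mitochondrial calls numbered 2, and 1 without the filter, 4 with the compared groups alone, 1 without the 2 shallowest libraries and 1 to 2 with a library left out. Nuclear calls there numbered 1, and 10 with all 36 libraries, 4 with DESeq2, 2 without the filter, 0 with the compared groups alone, 0 without the 2 shallowest libraries and 0 to 5 with a library left out. For 3A4 in PANC-1, mitochondrial calls numbered 3, and 5 with the compared groups alone and 1 to 3 with a library left out; nuclear calls numbered 3, 0 to 3 with a library left out, and 5 when library 2 of 1E5 did not enter the spread, an alternative chosen after seeing the data. For 1E5 in MIA PaCa-2, 4 nuclear calls became 7 with all 36 libraries. Between DMSO libraries, 8 mitochondrial calls between MIA PaCa-2 and PANC-1 became 13 with only the 9 DMSO libraries, and leaving out a library gave 4 to 6 mitochondrial and 7 to 11 nuclear calls between BxPC-3 and PANC-1, from 9 and 12. Nuclear calls of 3A4 against 1E5 in MIA PaCa-2 ranged from 4 to 7. For interactions of nuclear factors, 3A4 gave 1 call, 0 without the filter and 0 to 2 with a library left out, and GW3965 gave 0, or 1 with DESeq2. The cause of these shifts was not tested, apart from the fewer libraries that some settings hold.

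By the rule used here, that every same-numbered correlation of a contrast exceed 0.1, the replicate numbers paired the libraries in 0 of 12 contrasts. Correlations of same-numbered deviations ran from -0.0624 to 0.229, low but mostly above 0, and the main fit held no replicate block. With a replicate block, nuclear calls became 1 (from 0) for GW3965 in BxPC-3 and 2 (from 1) for 3A4 in MIA PaCa-2, and no other count moved by more than 1.5 times. Of the calls on single members with 1E5, 14 of 15 mitochondrial and 4 of 4 nuclear calls in MIA PaCa-2, and 9 of 13 and 8 of 11 in PANC-1, passed under every alternative run. With 3 libraries a group, the permutation tests cannot pass 0.05, and the shallowest library of 2701393 counts limits the low nuclear factors of MIA PaCa-2.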

Other observations

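The wider mitochondrial lists were also counted for 3A4. In PANC-1 with 3A4, 5 of 22 mitochondrial tRNA genes were higher and 0 lower (median log2 fold change 0.63), and 4 of 12 mitophagy genes were lower and 0 higher (median -0.26), against 7.37% of all genes called. The large and small mitochondrial ribosomal subunits had 1 of 49 and 1 of 32 genes higher and 0 lower there. In MIA PaCa-2 with 3A4, 13.8% of all genes were called, 7.30% higher and 6.45% lower. Beside these shares, 5 of 49 large-subunit genes were lower and 0 higher (median -0.10), and 1 of 22 tRNA genes was higher. Of the 23 further RNA processing genes 0 were called by edgeR, with 3 at an unadjusted p under 0.05.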
